A study of Mus musculus with 12 samples.

Results

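Long-term haematopoietic stem cells (HSCs) of young and of aged mice, both untreated, were compared gene by gene. The comparison takes 4 young control libraries (replicates 2 to 5) and 5 aged control libraries (replicates 0 and 2 to 5), which are 9 of the 12 libraries of the series. The groups were set by the sample labels alone, and all 22548 genes of the deposited table were examined. The other 3 libraries came from aged HSCs given CASIN, an inhibitor of the small GTPase Cdc42. They entered the main fit for the estimate of the spread only. They also entered alternative settings made over all 12 libraries, such as the choice of genes for centring and the filter on mean level. All mice were C57BL/6, 2 to 4 months old in the young group and 20 to 26 months old in the aged group. Cells were gated as lineage-negative, c-kit+, Sca-1+, CD34- and Flk2-. Cells of both groups were kept for 16 h in buffered saline with serum in a low-oxygen incubator before lysis, so that neither group is freshly isolated marrow. The design text gives at least 200 cells and at least 3 mice per group, and the methods of the study call the libraries biological repeats from pooled cells, but no label ties a library to an animal. Therefore the p-values measure the spread between these libraries. In the study's methods, young mice came from a commercial breeder and aged mice from other colonies, so that age and source of the mice cannot be told apart.

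HSCs sit at the top of the blood hierarchy, are mostly quiescent and renew themselves throughout life. With age they become more numerous but less able to engraft, and their output shifts from lymphoid to myeloid cells. Chromatin regulators such as the Polycomb complexes, which silence developmental genes, and the trithorax proteins, which keep genes open, are among the factors that preserve HSC identity, and Cdc42 activity, cell polarity and nuclear architecture are known to change in aged HSCs.

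Expression was deposited as 1 log2 value per gene and library. Among high values, those at the same rank were nearly identical in all 12 libraries, as after quantile normalization: the highest was 16.09 in each, and the value at rank 1000 lay between 7.58 and 7.59, whereas at rank 5000 it lay between 4.49 and 4.62. On such a scale a value gives the rank of a gene in its library, and the values of low genes depend on how many genes are undetected. A gene was counted as detected where it stood above the lowest value of its library. Young libraries detected 6078, 8652, 9673 and 6567 genes (replicates 2, 3, 4 and 5), and aged libraries detected 16167, 17621, 11463, 11986 and 13373 genes (replicates 0, 2, 3, 4 and 5). The groups did not overlap. On average, aged libraries detected 28.3 percentage points more of the genes (exact permutation test, two-sided, p = 0.00794). The depth of the libraries is unknown, and fewer transcripts per cell, fewer cells and shallower sequencing cannot be told apart in such bulk samples. The range of the values moved with the number of detected genes. The lowest value that any detected gene took was 3.62, 1.97, 1.58 and 3.24 in young replicates 2 to 5, whereas it lay between 0.18 and 1.21 in the aged libraries. Consequently, a gene of low level that is detected in a young library receives a higher value there than a gene of low level does in an aged library.

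**Figure D1:**
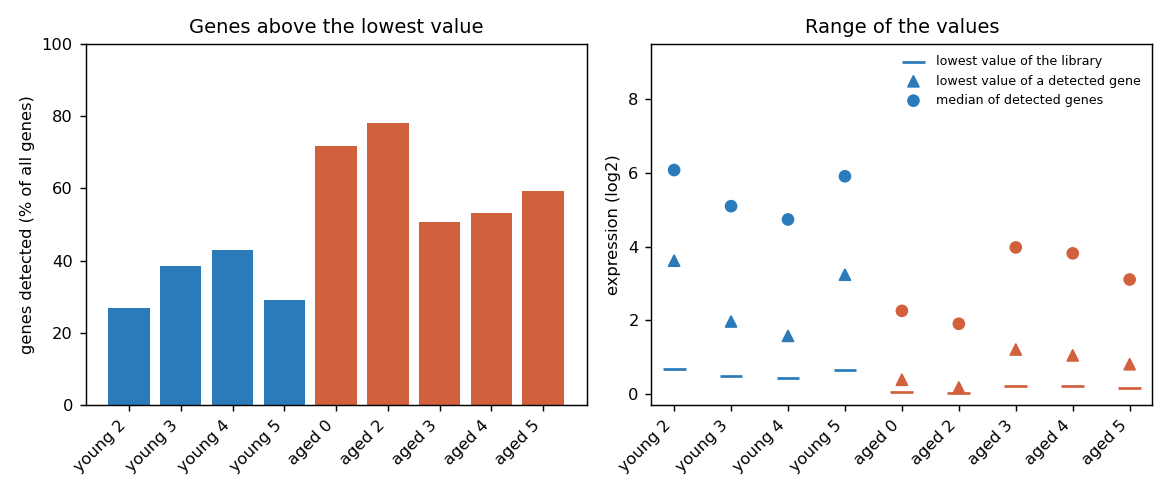
Left, genes above the lowest value of their library as a percentage of 22548 genes, young in blue and aged in orange. Right, the lowest value (bar), the lowest value of a detected gene (triangle) and the median of detected genes (circle) in each library, in log2 units. The highest young library (42.9%) lies below the lowest aged library (50.8%), and detected genes start at 1.58 or more in young and at 1.21 or less in aged libraries.

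The label of the cells was compared with markers of HSCs. Kit and Ly6a, which encode the c-kit and Sca-1 antigens of the gate, stood at the lowest value in all 4 young libraries and reached at most 2.21 and 1.79 in aged libraries. Cd48, which HSCs lack, stood at the lowest value in all 9 libraries. Meis1 and Runx1, transcription factors of HSCs, were detected in all 9 libraries at 6.54 to 8.53 and 3.58 to 7.83. Of 30 transcription factors of HSCs, 52.5% were detected per young and 80.7% per aged library, and Bmi1 and Erg were detected in no young library. Hence the label was borne out by some of its markers only. Among defining markers of other blood cells, Hbb-b1 (erythroid) and Pf4 (platelets) stood at the lowest value in all 9 libraries. Mpo and Elane (granulocytes) were detected in 4 and 3 aged libraries and in no young library, and Cd79a (B cells) in 4 aged libraries. Over all genes, 34.3% were detected per young and 62.6% per aged library. The granulocyte and monocyte list (29 genes) had 25.9% and 49.7%, the B cell list (19 genes) 28.9% and 63.2%, and the T and NK cell list (22 genes) 30.7% and 59.1%. The megakaryocyte list (21 genes) had 35.7% and 68.6%, the mast cell list (10 genes) 25.0% and 48.0%, and the erythroid list (17 genes) 35.3% and 56.5%. The aged-to-young ratios of these 6 lists, 1.6 to 2.18, lay around the 1.82 of all genes. The mean level of the granulocyte list ranged from 1.6 to 2.37 in young and from 1.75 to 2.26 in aged libraries, and that of the B cell list from 1.63 to 2.45 and from 2.1 to 2.9. The part of these cells in any difference given here was not tested.

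Differential expression was first asked over all genes. Only 4 of 22548 genes (0.0177%) passed an adjusted p under 0.05 with limma, 3 higher in young and 1 higher in aged HSCs. At an unadjusted p under 0.01, 118 genes (0.523% of all genes) were higher in young and 185 (0.82%) higher in aged HSCs. At an unadjusted p under 0.05, 480 genes (2.13%) were higher in young and 722 (3.2%) in aged HSCs, together 5.33% of the genes, which is close to the share that such a threshold admits by itself. The split of the 303 genes at p under 0.01 depends on the scaling. It was 38.9% higher in young as deposited and 67.0% of 312 after the libraries were centred on genes detected in all 12 of them, which moved every difference (young minus aged) up by 0.453. It was between 49.7% and 55.3% when any 1 young library was left out. A direction given below is therefore that of the deposited scale. The groups did not overlap, with every library of the higher group detecting the gene, for 77 genes higher in young (0.341%) and 364 genes higher in aged HSCs (1.61%).

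The 2 long noncoding RNAs that led the list were present in every young library and at the lowest value in every aged one. Their promoters are shown because these are the 2 genes of the table that were on in all 4 young and off in all 5 aged libraries. The sequences (RefSeq, GRCm38.p6) are windows of 300 bases around the annotated start, 5′ to 3′ on the minus strand, with CG dinucleotides in capitals.
Kcnq1ot1, chr7:143296498-143296797: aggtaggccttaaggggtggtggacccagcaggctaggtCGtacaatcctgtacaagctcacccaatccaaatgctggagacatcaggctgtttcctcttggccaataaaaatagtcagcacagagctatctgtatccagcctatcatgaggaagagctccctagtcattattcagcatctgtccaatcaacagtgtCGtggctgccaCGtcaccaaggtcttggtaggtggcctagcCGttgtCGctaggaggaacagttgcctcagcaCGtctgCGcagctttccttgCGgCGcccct
2700054A10Rik, chr17:13554045-13554344: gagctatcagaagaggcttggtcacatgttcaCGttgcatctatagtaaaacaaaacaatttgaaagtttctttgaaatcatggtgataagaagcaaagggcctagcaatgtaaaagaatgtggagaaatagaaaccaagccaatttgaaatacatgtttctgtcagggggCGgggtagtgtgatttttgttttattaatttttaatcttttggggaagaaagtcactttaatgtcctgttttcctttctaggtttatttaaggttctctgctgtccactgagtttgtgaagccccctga
The Kcnq1ot1 window holds 9 CG dinucleotides and the 2700054A10Rik window 2, and 45.8% and 85.9% of the 32851 promoter windows in the RefSeq table hold as many or more.

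Kcnq1ot1 is the antisense RNA of the imprinted Kcnq1 domain, made from the paternal allele, and spans 143213111 to 143296547 on chromosome 7. It read 15.61, 15.93, 15.93 and 15.93 in young replicates 2 to 5 and 0.07, 0.02, 0.23, 0.22 and 0.16, the lowest value of each library, in aged replicates 0 and 2 to 5. It was thus near the highest value of every young library and undetected in every aged one (adjusted p = 3.81e-10). The reads behind these values were not examined. Whether so extreme a contrast reflects the RNA in the cells or the making and quantification of the libraries was not tested. Kcnq1, the gene it runs against, stood at the lowest value in all 9 libraries. The RNA of unknown function 2700054A10Rik spans 13487021 to 13554094 on chromosome 17. It read 7.51, 7.89, 7.88 and 7.34 in young libraries, and none of the 5 aged libraries detected it (adjusted p = 1.73e-05). Neither group of values overlaps the other. Since aged libraries did not detect either RNA, the fitted differences of 15.71 and 7.51 depend on the lowest value and no fold is given.

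The remaining 2 genes encode membrane and ubiquitin pathway proteins. Ldlrad2, a gene with a low-density lipoprotein receptor class A domain on chromosome 4, fell from 7.09, 6.51, 8.52 and 6.67 in young to 3.06, 3.57, 1.88, 2.46 and 1.97 in aged HSCs. It was detected in all 9 libraries and the difference was 4.61 ± 0.54 (log2, SE, adjusted p = 0.0292). Rnf122, a RING-type ubiquitin ligase on chromosome 8, stood at the lowest value in all 4 young libraries and read 5.13, 4.89, 4.37, 6.23 and 3.48 in aged libraries (adjusted p = 0.0292). Each of these genes had all young values on one side of all aged values. The calls of Kcnq1ot1 and 2700054A10Rik remained in every setting whose gene filter kept them, whereas those of Ldlrad2 and Rnf122 were lost in several. Among these settings, Ldlrad2 had an adjusted p of 0.0672 with 2 groups only, 0.156 with a pseudocount of 0.1, and up to 0.0937 when young replicate 2 or aged replicate 0, 3 or 5 was left out. Rnf122 had an adjusted p of 0.0719 with 2 groups only, 0.149 with a pseudocount of 0.1, 0.224 after centring, and up to 0.0932 when young replicate 2 or 3 or aged replicate 0, 2 or 3 was left out.

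Genes named for the first time from here on did not pass the adjusted limma test. Differences are young minus aged on the log2 scale, and counts of genes higher in 1 group are at an unadjusted p under 0.05. For some genes an adjusted p with 1 library left out is also given. Such settings were picked after the values were seen, because the gene passed in them, so they add no support. Of genes higher in young HSCs, those with the largest differences and no overlap included Mrps24, Ssbp3 and Fanca. Mrps24, a protein of the small mitochondrial ribosomal subunit, read 7.74, 6.7, 3.58 and 7.25 in young and 0.75, 0.29, 0.23, 1.3 and 1.32 in aged libraries (adjusted p = 0.182). Ssbp3, a single-stranded DNA binding cofactor of LIM-domain transcription complexes, read 7.89, 7.66, 6.77 and 4.64 in young and 2.4, 0.29, 0.23, 1.3 and 2.48 in aged libraries (adjusted p = 0.0811). Both genes were detected in all young libraries and in 4 of 5 aged libraries, where they stayed below 3.62. Fanca, the Fanconi anaemia core complex gene, read 6.62, 7.4, 5.23 and 6.69 in young and 0.98, 2.94, 0.23, 4.49 and 1.0 in aged libraries (adjusted p = 0.377). Without young replicate 4 the adjusted p of Mrps24 was 0.0277, and without young replicate 5 that of Ssbp3 was 0.00951. Col5a2 (a fibrillar collagen), Whamm (an actin nucleation factor), Iqsec1 (a guanine nucleotide exchange factor for Arf6) and Zfp652 completed the largest young-high differences, which ranged from 4.54 to 5.54 beside those of the called genes.

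Of genes higher in aged HSCs, Gigyf2, Bdp1, Fzd7 and Golga2 led those of known function. Gigyf2, a translational repressor, was at the lowest value in all 4 young libraries and read 7.37, 6.52, 7.07, 6.44 and 4.56 in aged libraries (adjusted p = 0.451). Bdp1, a subunit of the RNA polymerase III initiation factor TFIIIB, was detected in young replicate 4 alone, at 2.21, and read 4.86, 7.14, 8.19, 7.16 and 6.93 in aged libraries (adjusted p = 0.451). Fzd7, a Wnt receptor, was likewise detected in 1 young library, at 3.11, and read 6.89, 5.63, 7.49, 8.22 and 5.51 in aged libraries (adjusted p = 0.377). In these genes the groups did not overlap, and the contrast lay between detection in every aged library and absence from nearly every young one. Golga2, a Golgi matrix protein, was at the lowest value in young libraries and at 3.11 to 7.6 in aged libraries (adjusted p = 0.534). Pcmtd2, apart from Rnf122 the gene with the smallest p of those named here that only aged libraries detected, read 2.4, 5.23, 6.32, 5.61 and 6.65 in aged libraries, and its adjusted p of 0.137 became 0.000798 without aged replicate 0. Frem2 (extracellular matrix), Sfmbt1 (a Polycomb-related protein), Api5 (an inhibitor of apoptosis) and Ap1g1 (a clathrin adaptor) shared this pattern, with differences of -5.23, -5.09, -5.07 and -4.87. Gm5622, D10Bwg1379e and Dnah17, an axonemal dynein, had differences of -5.42, -5.38 and -5.34. The largest differences in favour of aged HSCs, -6.05 and -5.95, belonged to Gm21276 and Gm5523, which are annotated as transcribed pseudogenes and may share reads with related genes.

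**Figure D2:**
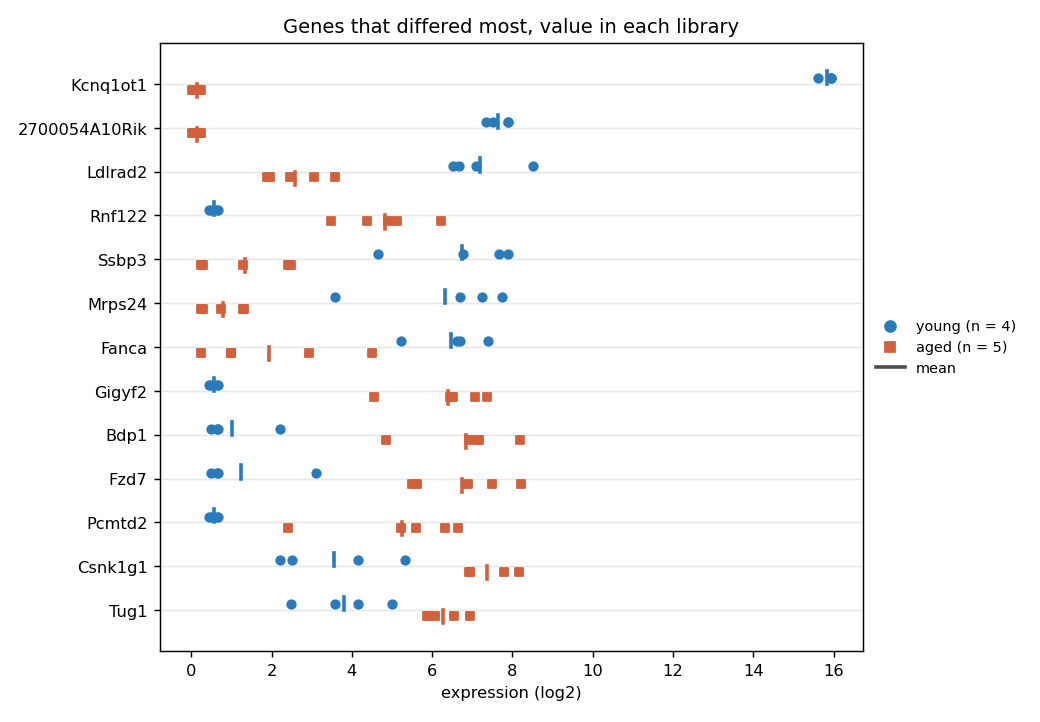
Expression (log2) of the genes that differed most in each of 4 young (circles) and 5 aged (squares) libraries; vertical bars are group means. Kcnq1ot1 lies at 15.61 or above in young and at the lowest value in aged libraries, and in every gene shown the young and aged values do not overlap.

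Genes that only 1 age group detected were mostly genes of the aged libraries. Of all genes, 333 were detected in all 5 aged libraries and no young library, whereas 2 were detected in all 4 young libraries and no aged library. Allowing 1 library of the lower group, the numbers were 1213 and 3. Of the 2831 genes on in every young library, 90.4% were on in every aged library. Conversely, 42.1% of the 6078 genes on in every aged library were on in every young one. A further 1061 genes were detected in none of the 9 libraries. Over all genes, aged libraries detected 1.82 times as many as young libraries, and this ratio followed the level of the genes. With genes in 10 classes of equal size by mean level, it was 8.67, 4.11 and 3.28 in classes 2 to 4 from the bottom and 1.04 in the highest class. Families of low level lay accordingly. The share detected was 11.9% in young and 42.0% in aged libraries for 1109 olfactory receptor genes, 12.6% and 41.4% for 290 vomeronasal receptor genes and 12.4% and 43.9% for 103 keratin and keratin-associated genes, families known from sensory and epithelial tissues. In percentage points these differences lay near the 28.3 of all genes. For 84 cytosolic ribosomal protein genes, the shares were 53.6% and 69.8%.

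A set of 2558 genes was detected in all 9 libraries. A gene enters this set only with a value of at least 3.62 in young replicate 2, whereas values of 0.18 to 1.21 suffice in the aged libraries, so that genes of low level had to be higher in young to enter. In this set 124 genes (4.85%) were higher in young and 106 (4.14%) higher in aged HSCs at p under 0.05. These counts were 202 and 34 after centring and 98 and 40 with a pseudocount of 0.1. In all, 41 (1.6%) young-high and 69 (2.7%) aged-high genes did not overlap. The directions lay at different levels. Of the 124 genes higher in young, 96 (77.4%) had an aged mean below 3.62, the lowest value of any detected gene in young replicate 2, and 22 belonged to the 1903 genes of the set that were in the top 10% of all genes by mean level. Of the 106 genes higher in aged HSCs, 2 had a young mean below 3.62 and 105 were in the top 10%. The young-high count is therefore given as a description of the set, without support from it. After centring, the top 10% held 57 genes higher in young and 34 higher in aged HSCs, so that the excess of aged-high genes there turned with the scaling.

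Among young-high genes of this set, Slc25a12, the mitochondrial aspartate and glutamate carrier, read 5.96, 8.28, 4.62 and 6.25 in young and 3.59, 1.16, 2.79, 1.53 and 2.48 in aged libraries (adjusted p = 0.489). Its aged mean, 2.31, lay below the least value that young replicate 2 gave to any detected gene, so that this difference depends on the entry to the set. Rab2b, Pde6a, Mcidas, Fndc5, Lilra6, Kri1 and Tmem239 had differences of 4.45 to 3.58, also with aged means below 3.62.

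Aged-high genes of this set lay at higher levels. Csnk1g1, a casein kinase, read 5.33, 2.5, 2.21 and 4.15 in young and 8.17, 7.79, 6.95, 6.94 and 6.93 in aged libraries (adjusted p = 0.542). Cycs, cytochrome c of the respiratory chain and of apoptosis, read 4.55, 5.36, 5.64 and 5.33 against 7.44, 8.1, 8.25, 7.49 and 6.78 (adjusted p = 0.534). Tug1, a long noncoding RNA, read 5.01, 4.16, 2.48 and 3.59 against 5.86, 5.9, 6.07, 6.94 and 6.54 (adjusted p = 0.427). In each, every aged library was above every young one. Rbm34, Zfp706, Tyr, Ksr2, Sh3kbp1, Zfp148 and the noncoding 4933431E20Rik had differences of -2.96 to -2.32. The adjusted p of Zfp706, 0.387, was 0.049 without young replicate 4.

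The share of genes higher in aged HSCs rose with the length of the transcripts. Length was taken as the longest GENCODE M21 transcript of a gene, found for 21352 genes (94.7%), which were divided into 5 classes of equal size. In the shortest class (median 985 bases), 87 genes (2.04%) were higher in young and 23 (0.539%) higher in aged HSCs at p under 0.05. In the longest class (median 6256 bases), 67 (1.57%) were higher in young and 284 (6.65%) in aged HSCs. The aged-high shares of the classes between them lay in order, at 2.06%, 2.76% and 4.12%. Detection also rose with length. Young libraries detected 14.2% of the shortest and 55.0% of the longest class, and aged libraries 35.2% and 83.5%. The rank correlation of length with the difference (young minus aged) was -0.189 across genes, which share the same libraries and are not replicates. In the genes detected in all 9 libraries (2441 with a length), 9 of the shortest class and 36 of the longest were higher in aged HSCs. The young-high genes there, 48 and 3, are not read, since genes of low level entered only when high in young: below the top 10% by level, the 5 classes held 32, 19, 19, 19 and 8 young-high genes and 1 aged-high gene in all. The same entry rule bears on the contrast per library that follows. Per library, the median of the longest class exceeded that of the shortest by 0.417 ± 0.283 (log2, SD, n = 4) in young and by 1.01 ± 0.343 (SD, n = 5) in aged HSCs (exact two-sided permutation test, p = 0.0317). The 2 groups overlapped, since young replicate 3 (0.75) lay above aged replicate 5 (0.56), and leaving out single libraries gave differences of -0.7 to -0.5, with an exact permutation p above 0.05 for 7 of the 9.

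The relation was weaker among genes of high level. In the top 10% by mean level, 11 genes of the shortest class and 30 of the longest were higher in aged HSCs, beside 6 and 2 higher in young. There the per-library contrast was -0.3 ± 0.138 in young and -0.102 ± 0.174 in aged libraries (exact permutation test, p = 0.119), a difference within the spread of the libraries. GC content was also followed, and the entry rule of the set bears on its contrast as well. Among genes detected in all 9 libraries but below the top 10% by level, 14 of the lowest GC class and 28 of the highest were higher in young. None of either class was higher in aged HSCs. In the genes detected in all 9 libraries, the median of the class of highest GC content minus that of the lowest class of GC content was -0.193 ± 0.157 in young and -0.67 ± 0.107 in aged libraries (exact permutation test, p = 0.00794), with no overlap. In the top 10% by level the corresponding contrasts were -0.127 ± 0.129 and -0.3 ± 0.0903 (exact permutation test, p = 0.0397). Whether length, GC content, level or detection carries the relation was not tested.

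**Figure D3:**
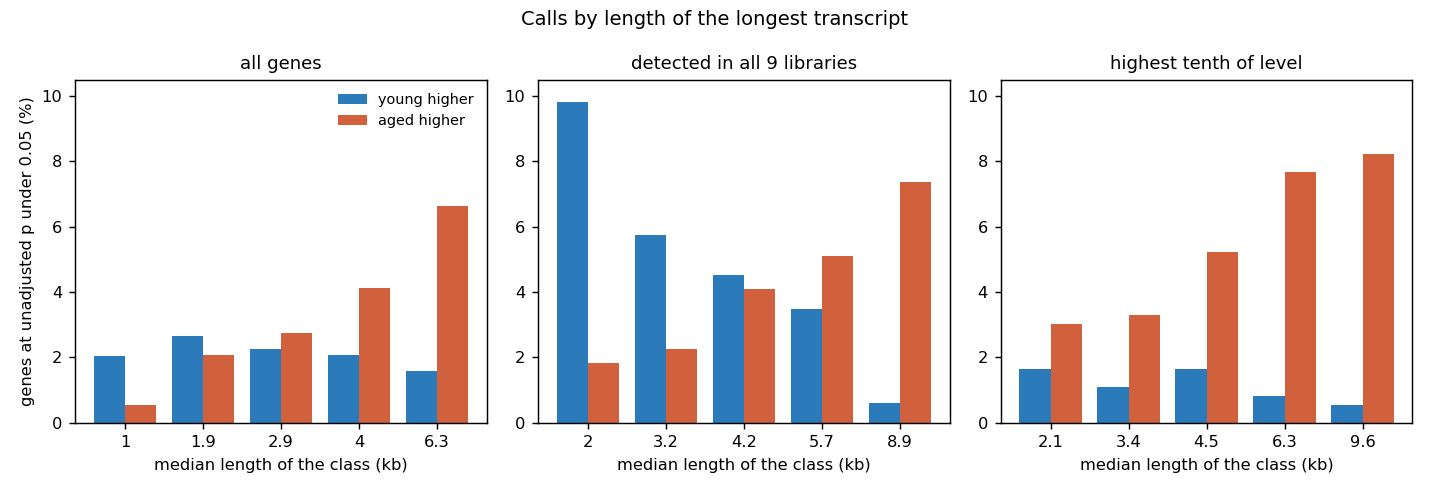
Percentage of genes at unadjusted p under 0.05 that were higher in young (blue) or aged (orange) HSCs, by class of transcript length, for all genes, for genes detected in all 9 libraries and for those of them in the top 10% by mean level. From the shortest to the longest class the aged-high share goes from 0.539% to 6.65% over all genes.

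Of the functional lists, that of Polycomb complexes and DNA methylation held the largest share of aged-high genes. The lists were chosen with earlier results of these data known, so their shares are descriptions and not independent support. Among 46 genes of Polycomb complexes and DNA methylation, 7 (15.2%) were higher in aged HSCs at p under 0.05, against 3.2% of all genes, and 1 (Phf1) was higher in young. The 7 were Phc3, Bmi1, Asxl2, Dnmt3b, Cbx7, Rybp and Phc2, and 5 of the 46 did not overlap, against 1.61% of all genes. Phc3, a subunit of the Polycomb repressive complex PRC1, read 0.67, 4.09, 2.92 and 0.65 in young and 6.95, 7.39, 6.4, 7.71 and 7.14 in aged libraries (adjusted p = 0.0953). Bmi1, the PRC1 subunit that HSCs need for self-renewal, was at the lowest value in all 4 young libraries and read 5.22, 6.8, 8.13, 3.03 and 4.85 in aged libraries (adjusted p = 0.515). Thus both were separated between the groups, Phc3 with 2 and Bmi1 with 4 young libraries at the lowest value. Asxl2, a cofactor of histone H2A deubiquitination, was detected in all 9 libraries, at 5.86, 3.35, 6.12 and 4.15 in young and 6.35, 7.5, 6.98, 7.2 and 7.25 in aged libraries (adjusted p = 0.697). The 7 members of the group that all libraries detected had a median difference of 0.06, 4 higher in young and 3 in aged HSCs, and 6 of the 7 aged-high members, all but Asxl2, were undetected in at least 2 young libraries. The group's median transcript length was 4266 bases, beside 2880 bases for all genes. Its count stayed between 5 and 8 in the other settings and was 6 after centring.

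Other chromatin groups held smaller counts. Over all genes, 3.2% were higher in aged and 2.13% in young HSCs. Of 46 trithorax and histone methyltransferase genes, 4 (8.7%) were higher in aged HSCs. Kmt2d, which methylates histone H3 at enhancers, read 6.06, 6.64, 5.36 and 6.72 in young and 8.58, 9.02, 7.88, 8.32 and 7.31 in aged libraries (adjusted p = 0.536). Setd8, which methylates histone H4 and acts in the cell cycle, went the other way, at 5.92, 6.93, 6.99 and 7.69 in young and 2.58, 2.0, 2.25, 5.1 and 5.4 in aged libraries (adjusted p = 0.536). These values do not overlap in either gene, and both were detected in all 9 libraries. Of 50 chromatin remodellers, 4 (8.0%) were higher in aged HSCs, with Chd1 detected in all aged libraries and no young one (adjusted p = 0.542). After centring, the aged-high counts were 1 of 46 and 2 of 50. These lists hold long transcripts, with medians of 5935 and 6188 bases, and the longest class of all genes gave 6.65%. Among 32 writers and erasers of H4K16 acetylation, the mark that the study follows, Kat5 and Phf20l1 (6.25%) were higher in aged HSCs and none was higher in young. Among 362 zinc finger genes named Zfp, 22 (6.08%) were higher in aged and 6 (1.66%) in young HSCs, which became 12 and 15 after centring.

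**Figure D4:**
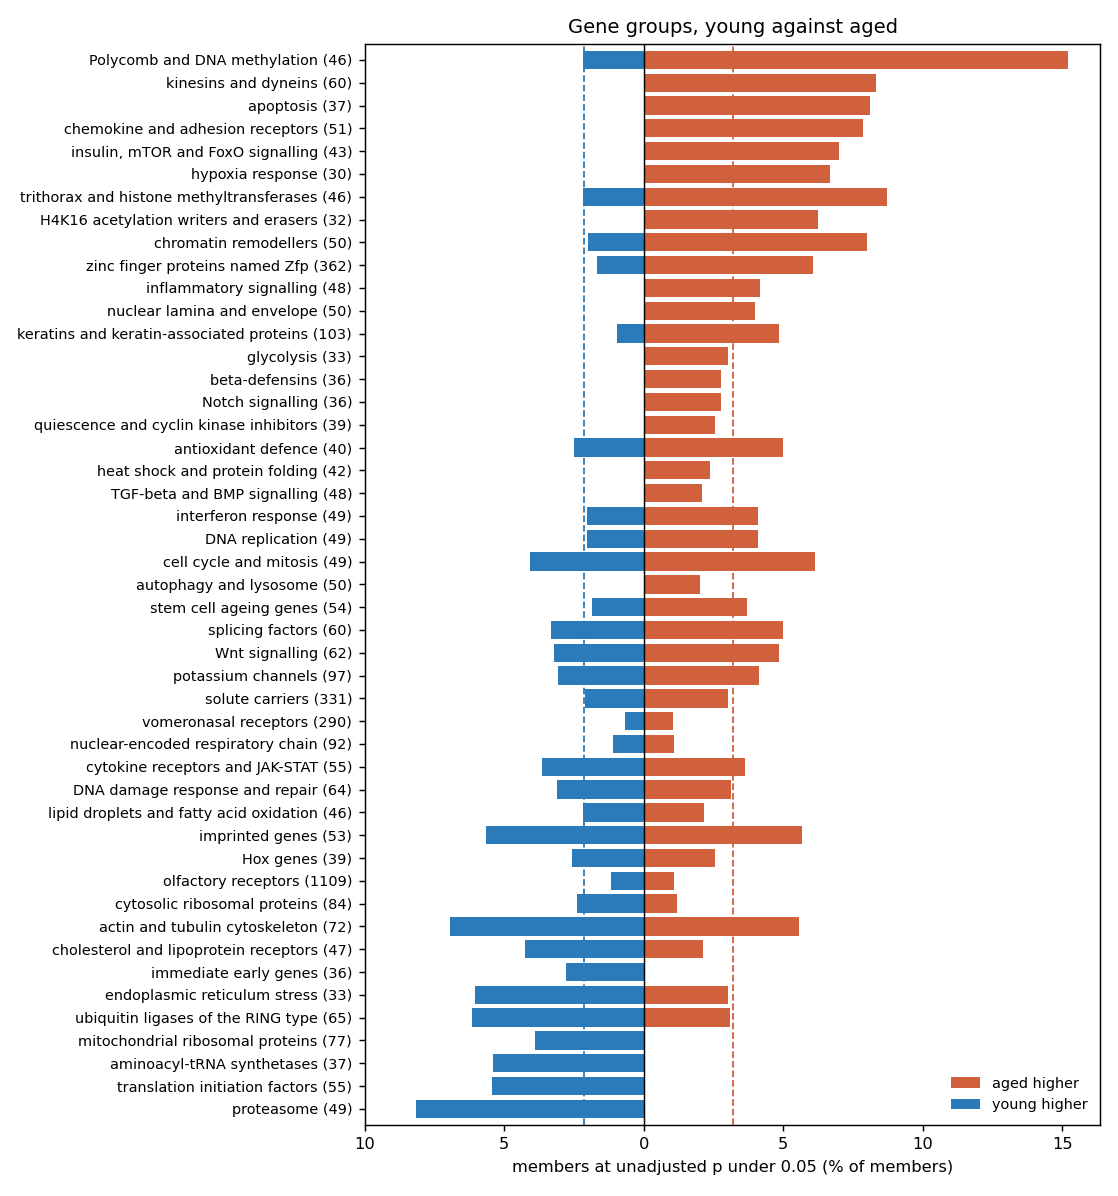
Members of functional groups of at least 30 genes that were higher in aged (orange, right) or young (blue, left) HSCs at unadjusted p under 0.05, as a percentage of the members measured (number in parentheses). The lists were chosen with earlier results of these data known. Dashed lines mark the shares over all genes, 3.2% and 2.13%; Polycomb and DNA methylation reaches 15.2% on the aged side and the proteasome 8.16% on the young side.

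Actin and tubulin genes were called in both directions. Of 72 actin and tubulin genes, 5 (6.94%) were higher in young HSCs, against 2.13% of all genes, and 4 (5.56%) were higher in aged, against 3.2% of all genes. Actb, beta-actin, read 6.16, 6.8, 2.92 and 7.73 in young and 3.29, 1.86, 2.02, 1.53 and 2.67 in aged libraries (adjusted p = 0.516). Its adjusted p was 0.0312 without young replicate 4, the library that overlaps the aged values. Leaving out the young value that lies among the aged ones favours a lower p, so this adds no support. Pfn1, profilin, which supplies actin monomers, read 6.56, 4.48, 3.49 and 3.59 against 0.67, 1.16, 1.88, 1.8 and 2.25 without overlap (adjusted p = 0.542). Tmsb10, a thymosin that binds actin monomers, read 4.11, 6.6, 7.48 and 3.59 against 2.83, 0.02, 0.23, 2.46 and 2.34 (adjusted p = 0.643). All 3 bind or form actin, and all 3 had aged means below 3.62. Actg1, the other cytoplasmic actin, had the opposite sign, with means of 2.11 and 5.47 (adjusted p = 0.764), as had Myl6 with 1.92 and 5.15 (adjusted p = 0.764).

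Of 60 genes of motor proteins, the kinesins and dyneins, 5 (8.33%) were higher in aged and none in young HSCs, against 3.2% and 2.13% of all genes. In 4 of the 60 the groups did not overlap, with aged higher, against 1.61% of all genes. Kif5a, a heavy chain of the transport motor kinesin, read 4.11, 2.5, 2.78 and 0.65 in young and 6.61, 5.27, 7.16, 4.24 and 5.05 in aged libraries (adjusted p = 0.536). Kif14, a kinesin of cytokinesis, read 5.14, 5.67, 2.92 and 4.64 against 7.48, 7.33, 7.91, 8.32 and 7.31 (adjusted p = 0.764). Both were without overlap. The 7 members that all libraries detected had a higher mean in aged HSCs, with a median difference of -1.26 (young minus aged), beside -0.04 for all 2558 such genes. After centring, 4 were higher in aged and 2 in young HSCs. The median length of the group was 5434 bases. In the nuclear lamina and envelope list of 50 genes, Icmt and Nup188 (4.0%) were higher in aged HSCs, near the 3.2% of all genes.

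Few genes of protein synthesis and turnover differed. Of 49 proteasome genes, 4 (8.16%) were higher in young and none in aged HSCs, against 2.13% and 3.2% of all genes, among them Psmd1 at means of 5.0 and 1.41 (adjusted p = 0.764). Of 77 mitochondrial ribosomal protein genes, Mrps24, Mrpl10 and Mrpl43 (3.9%) were higher in young HSCs. Of 55 translation initiation factors, Eif3j1, Eif1 and Eif3f (5.45%) were, and Eif1 alone of these 3 had an aged mean above 3.62 (means of 6.65 and 4.29, adjusted p = 0.764). Of 37 aminoacyl-tRNA synthetases, 2 (5.41%) were higher in young HSCs. By the sign of the difference alone, 31 proteasome, 40 mitochondrial ribosomal, 27 initiation factor and 17 synthetase genes were higher in young, against 18, 37, 28 and 20 higher in aged HSCs. These signs are not read. The lowest value was 0.43 to 0.67 in young and 0.02 to 0.23 in aged libraries, so an undetected gene counts as higher in young. Young libraries detected 29.1% of the proteasome and 22.7% of the mitochondrial ribosomal genes. None of these 4 groups had a member higher in aged HSCs at p under 0.05, and the median lengths of the proteasome and mitochondrial ribosomal lists, 1907 and 1849 bases, were short. Cytosolic ribosomal proteins, 84 genes, had 2 members (2.38%) higher in young, among them Rpl36a, and 1 (1.19%) in aged HSCs (Rpl7a). The shares of all genes were 2.13% and 3.2%. Processed copies of such genes share their sequences, so that single members are uncertain. Of 92 nuclear-encoded respiratory chain genes, aged libraries detected 31.3%, 2.4 times as many as young libraries, and 1 gene differed in each direction.

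In energy metabolism and survival few genes were at an unadjusted p under 0.05. Ldha, lactate dehydrogenase of glycolysis, read 4.11, 2.5, 0.43 and 3.59 in young and 6.76, 5.87, 6.8, 4.49 and 7.09 in aged libraries (adjusted p = 0.535). It was the 1 glycolytic gene of 33 (3.03%) at p under 0.05, near the 3.2% of all genes that were higher in aged HSCs. Gapdh, in the same pathway, read 6.87, 9.04, 7.8 and 5.71 against 8.34, 8.79, 8.28, 8.29 and 8.46 and overlapped (adjusted p = 0.764). Gabarapl2, which builds autophagosomes, read 4.85, 2.5, 2.26 and 0.65 against 6.98, 5.71, 7.12, 7.2 and 6.07 (adjusted p = 0.469). It was the 1 of 50 autophagy and lysosome genes (2.0%) at that threshold, below the 3.2% of all genes. Ldha and Gabarapl2 were separated between groups, and Gapdh was not. Of 37 apoptosis genes, Cycs, Apaf1 and Cflar (8.11%) were higher in aged HSCs and none in young, against 3.2% and 2.13% of all genes. Apaf1, which forms the apoptosome with cytochrome c, read 0.67, 6.74, 0.43 and 0.65 in young and 5.97, 4.99, 5.79, 6.44 and 6.74 in aged libraries (adjusted p = 0.652). Its adjusted p was 0.00477 without young replicate 3, the single young library that detected it. The library left out held the 1 young value that went against the difference, so the lower p adds no support.

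Signalling genes differed singly. Of 62 Wnt pathway genes, Fzd7, Wnt2b and Gsk3b (4.84%) were higher in aged and Wnt5b and Lrp6 (3.23%) higher in young HSCs, near the 3.2% and 2.13% of all genes. Gsk3b, the kinase that marks beta-catenin for destruction, was detected throughout, at 6.44, 4.52, 5.96 and 6.83 in young and 7.52, 8.05, 7.84, 8.0 and 7.4 in aged libraries (adjusted p = 0.764). Of 43 insulin, mTOR and FoxO genes, Rictor, Deptor and Pik3cd (6.98%) were higher in aged HSCs, against 3.2% of all genes. Rictor, the defining subunit of mTOR complex 2, read 4.55, 6.31, 3.82 and 4.86 against 6.89, 6.71, 8.02, 6.79 and 5.68 (adjusted p = 0.65). In Gsk3b the groups were separate, and in Rictor young replicate 3 overlapped the aged values. Bmpr2, a receptor for bone morphogenetic proteins, was detected in 1 young library, at 7.46, and in aged libraries at 6.07 to 8.33 (adjusted p = 0.542). Its adjusted p was 0.0277 without that library, which held the 1 young value against the difference, so the lower p adds no support. Of 49 interferon response genes, 2 (4.08%) were higher in aged and 1 (2.04%) in young HSCs, and of 48 inflammatory genes 2 (4.17%, Tlr2 and Il6st) were higher in aged, also near those shares. Of 51 chemokine and adhesion receptors, 4 (7.84%) were higher in aged HSCs, among them the integrins Itgb2, Itgb6 and Itgb3, and none was after centring.

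Genes of HSC identity showed values in both directions. Of 30 transcription factors of HSCs, Bmi1, Erg and Ndn (10.0%) were higher in aged HSCs and Lmo2 (3.33%) in young, against 3.2% and 2.13% of all genes. Erg, an ETS factor required by HSCs, was at the lowest value in young libraries and read 1.37, 2.46, 7.12, 4.04 and 5.78 in aged libraries (adjusted p = 0.558). Lmo2, a bridging protein of the stem cell factor complex, read 4.11, 2.85, 6.47 and 0.65 in young and was detected in aged replicate 5 alone, at 2.4 (adjusted p = 0.764). Of 54 genes known for changes in aged HSCs, Cd38 (1.85%) was higher in young, and Arhgap29 and Itgb3 (3.7%) higher in aged HSCs, near the shares of all genes. Cd38, an NAD-consuming surface enzyme, read 5.96, 7.89, 5.07 and 5.59 against 4.62, 5.19, 2.25, 3.03 and 3.88 with a slight overlap (adjusted p = 0.724). Of 39 Hox genes, Hoxb9 (2.56%) was higher in young and Hoxc6 (2.56%) in aged HSCs. The 4 that all libraries detected (Hoxb1, Hoxb9, Hoxc8 and Hoxd11) had differences of 0.47 to 2.08 in favour of young. Genes of low level had to be higher in young to be detected in all 9 libraries, so this direction carries no support. Hoxb9 read 6.22, 5.23, 4.74 and 5.59 against 2.58, 2.79, 4.68, 4.95 and 4.62 (adjusted p = 0.764). Of 22 genes of marrow stroma and endothelium, 3 (13.6%) were higher in aged and none in young HSCs, against 3.2% and 2.13% of all genes. By the mean alone, 11 were higher in young and 11 in aged HSCs. Young libraries detected 45.5% of the list and aged libraries 77.3%, beside 34.3% and 62.6% of all genes. Lepr, the leptin receptor, read 6.22, 2.85, 2.48 and 0.65 in young and 7.76, 8.38, 6.88, 5.61 and 7.22 in aged libraries (adjusted p = 0.516). Col1a2 and Pdgfra were detected in 4 aged libraries and no young one. Lepr and Cxcl12 overlapped between the groups. The part of stromal RNA was not tested.

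**Figure D5:**
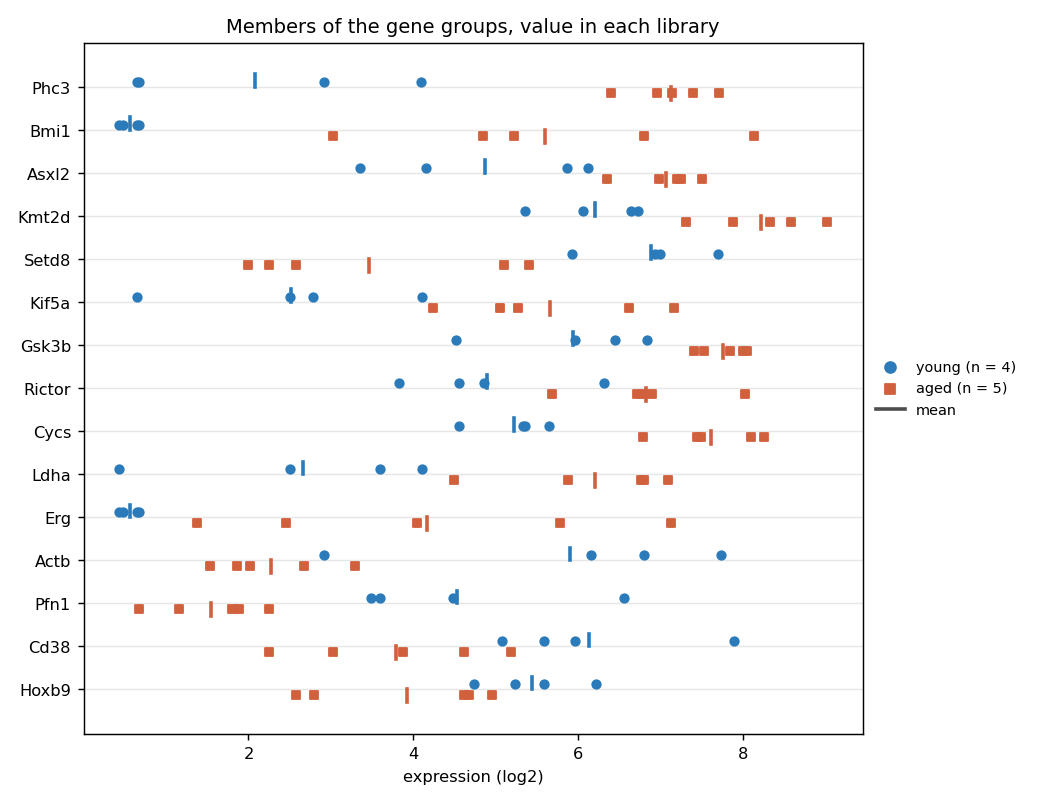
Expression (log2) of members of the functional groups in each of 4 young (circles) and 5 aged (squares) libraries; vertical bars are group means. Phc3 lies between 0.65 and 4.09 in young and between 6.4 and 7.71 in aged libraries, while Actb, Cd38 and Setd8 lie higher in young, Actb and Cd38 with overlap.

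Cell division, repair and RNA processing held members on both sides. Of 49 DNA replication genes, 1 (2.04%) was higher in young and 2 (4.08%) in aged HSCs, near the 2.13% and 3.2% of all genes. The counts were 2 (4.08%) and 3 (6.12%) of 49 cell cycle genes, and 2 (3.33%) and 3 (5.0%) of 60 splicing factors. Mcm7, a subunit of the replicative helicase, was at the lowest value in young libraries and read 3.93, 5.8, 7.47, 1.97 and 2.34 in aged libraries (adjusted p = 0.764). Orc6, of the origin recognition complex, read 5.81, 7.72, 0.43 and 7.15 in young and at most 2.23 in aged libraries (adjusted p = 0.652). These 2 genes of 1 process thus pointed in opposite directions. Chek2, a checkpoint kinase, read 4.11, 5.51, 2.03 and 5.73 against 0.58, 2.69, 0.23, 0.22 and 0.89 (adjusted p = 0.534). Of 64 repair genes, 2 (3.12%) were higher in each group, beside 2.13% (young) and 3.2% (aged) of all genes. The splicing factor Srsf3 read 0.67, 3.51, 2.4 and 0.65 against 7.78, 7.73, 5.24, 5.1 and 3.3 (adjusted p = 0.534), and Hnrnpk, an RNA-binding protein, 6.56, 5.15, 3.58 and 6.69 against 0.67, 3.92, 0.23, 3.82 and 0.16 (adjusted p = 0.539). In both genes 1 young library lay within the range of the aged values. Of 53 imprinted genes, Kcnq1ot1, Snurf and Snrpn (5.66%) were higher in young, against 2.13% of all genes. Snrpn read 6.81, 2.0, 6.39 and 3.27 against 0.64, 1.51, 1.25, 0.22 and 1.86 (adjusted p = 0.536); Snurf overlaps it on chromosome 7 with nearly equal values, so that the 2 count as 1 observation. Zim1, Ndn and Rtl1 (5.66%) were higher in aged HSCs, against 3.2% of all genes.

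Finally, the genes and the chromosome that the study follows were examined. Lmna, which encodes lamin A and C, read 0.67, 6.13, 0.43 and 6.14 in young and 0.07, 4.48, 1.36, 0.22 and 5.32 in aged libraries, a difference of 1.05 ± 1.75 (log2, SE, adjusted p = 0.899). Cdc42 read 0.67, 6.15, 5.27 and 3.59 against 4.62, 3.57, 5.59, 4.24 and 6.46, a difference of -0.98 ± 1.45 (adjusted p = 0.883). Both genes varied as widely within a group as between the groups. Hoxb4, a homeobox factor (2.26 ± 1.88, adjusted p = 0.795) and Mllt6, a cofactor of histone methylation (-1.66 ± 1.19, adjusted p = 0.765) also overlapped. With standard errors of 1.19 to 1.88, differences of 2 log2 units in these genes were not detectable here. On chromosome 11, 39 of 1696 genes (2.3%) were higher in young and 49 (2.89%) in aged HSCs at p under 0.05, near the 2.13% and 3.2% of all genes. The aged-high share was 4.89% on chromosome 3 (52 of 1064 genes) and 4.32% on chromosome 1 (55 of 1272), and the young-high share 3.39% on the X chromosome (30 of 885), given as descriptions without a test.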

How the data were processed

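RNA-seq libraries of sorted HSCs were made by the authors with a single-cell kit (oligo-dT and selective first-strand priming, random second-strand priming), aligned with TopHat to mm10 (submitters' processing notes) and processed with Cufflinks. The deposited unit is a log2 value per gene, made by the authors; high values at equal ranks were nearly the same in every library, as after quantile normalization, but the step from Cufflinks is not given in the sources used here. Depth is unknown. No other column of per-sample values was present (0).

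Young minus aged was tested with limma 3.58.1 (R 4.3.3; lmFit, eBayes, two-sided) in 1 fit of 12 libraries in 3 groups without a filter, with Benjamini-Hochberg adjustment over 22548 genes. The fit was tried on shuffled data: the values of each of 22548 genes were shuffled over the 12 libraries, and 200 genes were shifted in young. Adjusted calls held 67 moved and 11 unmoved genes at a shift of 4 log2 units, 101 and 29 at a shift of 6, and 1 unmoved gene with no shift. There, more than the nominal share of calls was false. Shuffling removes the difference in detection between the groups, so the false share among the real calls was not measured. Single values used exact permutation tests (scipy 1.17.1, Python 3.11.15). Of the genes, 21184 matched RefSeq (GRCm38.p6) by symbol, 1224 by synonym and 140 not at all. Named were genes with adjusted p under 0.05; the 10 largest differences each way at p under 0.01 without overlap, over all genes and over genes detected in all 9 libraries; up to 8 genes on in 1 group and off in the other; up to 3 genes per list with the smallest p under 0.05; and genes the study follows; some genes under this rule are not reported here. Other names (markers, Gapdh, Cxcl12, members of small counts) were chosen after their values were seen. Lists and members were chosen with earlier results of these data known. Alternatives were 2 groups only, a common lowest value, centring, filters, a pseudocount of 0.1, array weights, limma-trend, a replicate block and leaving out each library. The length, level and centred list counts were added after seeing the data. Length is that of the longest GENCODE M21 transcript. Figures used matplotlib 3.10.9.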

Additional observations from a re-analysis of the deposited data

Results flagged for a closer look

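Among 49 genes given by library, with detection and the length contrast, 102 groups of libraries were screened for 1 library far from the others by Dixon's criterion, and 7 met it. Chance meets the criterion in about 1 of 20 groups of normally distributed values. That rate does not apply here, since lowest values lie close together and 1 detecting library then meets it readily. The genes were also chosen for their differences. In young replicate 2, Kcnq1ot1 read 15.61 beside 15.93 in each of the other young libraries. Young replicate 4 was the 1 young library to detect Bdp1 (2.21), Fzd7 (3.11) and Bmpr2 (7.46). Young replicate 3 was the 1 young library to detect Apaf1 (6.74). Aged replicate 2 read 2.69 for Chek2 beside 0.22 to 0.89 in the other aged libraries, and aged replicate 5 was the 1 aged library to detect Lmo2 (2.4).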

How the results depend on the processing

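The 4 genes with adjusted p under 0.05 became 2 when genes had to be detected in 3 libraries or to have a mean of at least 3, with a pseudocount of 0.1 and with limma-trend, and 1 among genes detected in all 9 libraries. Leaving out 1 library gave 3 to 16, among them 7, 15 and 16 without young replicates 3, 4 and 5 and 11 without aged replicate 4. With the replicate number as a block (replicate block), which is not a pairing by animal since same-numbered libraries did not deviate together, there were 2, and 35 young-high genes in the top 10% by level. The 303 genes at p under 0.01 became 74 among genes detected in all 9 libraries, 145 with a mean of at least 3 and 198 with limma-trend. Centring gave 202 young-high and 34 aged-high genes among those detected in all 9 libraries, 57 and 34 in the top 10% by level, 9 young-high actin and tubulin genes and 12 aged-high Zfp genes. The pseudocount of 0.1 gave 40 aged-high genes in both sets, 12 young-high genes in the top 10%, and -1.43 instead of -0.7 for the median difference of the longest minus the shortest length class. Leaving out 1 library gave 14 (without young replicate 3) to 36 (without aged replicate 0) young-high genes in the top 10%, 5 to 8 actin genes (8 without young replicate 3), 14 to 23 Zfp genes (14 without young replicates 3 and 5) and -0.7 to -0.5 for the length contrast per library. Cdc42 ranged from -1.72 to 0.11, where its sign turned, without young replicate 2. The causes were not tested.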
